A study of Mus musculus with 32 samples.

Results

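Type I interferon response genes are switched on when interferon alpha or beta binds the IFNAR1 and IFNAR2 receptor chains, and macrophages are known both to secrete and to answer these cytokines. The receptor's kinases phosphorylate STAT2, which acts with IRF9 in the complex ISGF3, and ISGF3 binds the interferon-stimulated response element (ISRE) in promoters. Many of the induced proteins act against viral RNA, while others are sensors and transcription factors of the same pathway, so the response can feed back on itself. The 39 genes described here are a list of such genes in mouse. Each was taken where the array's annotation gives it a probe set that names no other gene, which held for 34 of the 39, with 1 probe set per gene, out of 19938 genes measured in that way. Isg15, Ifi47, Igtp and Gbp2 share their probe sets with other gene names and Ifi44 has no single-gene probe set, so these 5 were not analysed here. The symbols of Ifit3, Oas1a and Trim30a belong to families with near-identical copies, and signal from the copies cannot be separated on this array.

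The levels come from 4 lines of mouse macrophages on 32 Affymetrix Mouse Gene 1.0 ST arrays, 1 for each total RNA preparation. All lines carry the label M-/- and each has its own form of CSF-1R, the receptor for the macrophage growth factor CSF-1. Per the series' design text, the lines Y721F and 3AB lack receptor Tyr-721, a tyrosine that is phosphorylated in the active receptor, and the lines 3ABY721 and WT have it. In a time course, Y721F and WT cells went without CSF-1 overnight before CSF-1 was added for 0, 20, 60 or 180 min. In a steady-state experiment, 3AB, 3ABY721, Y721F and WT cells were either grown continuously in CSF-1 (120 ng/mL, human) or starved of it. Every one of the 16 groups has 2 arrays, numbered I and II and described as biological replicates, and that number limits the precision of each value. Each receptor is represented by 1 cell line, so an effect of the receptor and any other difference between the lines cannot be told apart. The questions put to the interferon genes were how their levels differ between lines with and without Tyr-721, and whether CSF-1 changes them.

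Values are the deposited log2 signals per probe set, so a difference of 1 is a 2-fold change. A gene is called, and is said to rise, fall, or be higher or lower, where limma's Benjamini-Hochberg adjusted p over 19938 genes is under 0.05 and the fold is above 1.5. As a check of the cell type, the 9 measured markers of a list of 10 macrophage markers had mean log2 signals between 10.21 and 12.14 on the starved, grown and 0 min arrays, and none had a group mean below the 20th percentile of its arrays. Of 6 measured lymphocyte markers, 4 or 5 lay below that percentile in each of these groups.

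The members moved together between replicate arrays of some groups, which bears on the results that follow. In the WT time course, array I exceeded array II in 32 of 34 members at 0 min, 32 at 20 min, 27 at 60 min and 32 at 180 min, with a median gap of 0.48, 0.50, 0.34 and 0.57. In the steady-state WT groups the order was the other way: array I was below array II in 33 of 34 members in grown cells and in 31 in starved cells, with median gaps of -0.55 and -0.42. The largest of these gaps was that of Ifitm3, a membrane protein that blocks virus entry, at 6.02 on array I and 8.96 on array II of grown WT cells. Across all genes the median gap was within 0.03 of zero in those 6 WT groups. The 3AB groups showed little of this, with median absolute gaps of 0.08 (grown) and 0.09 (starved) over the members. In the Y721F time course, array I exceeded array II in 26 members at 0 min, 15 at 20 min, 32 at 60 min and 30 at 180 min. The median gaps were 0.26, -0.05, 0.67 and 0.37, while across all genes they lay between -0.07 and 0.06. In starved 3ABY721 cells array I exceeded array II in 32 members, with a small median gap of 0.145. The cause of these shared shifts was not tested.

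**Figure D1:**
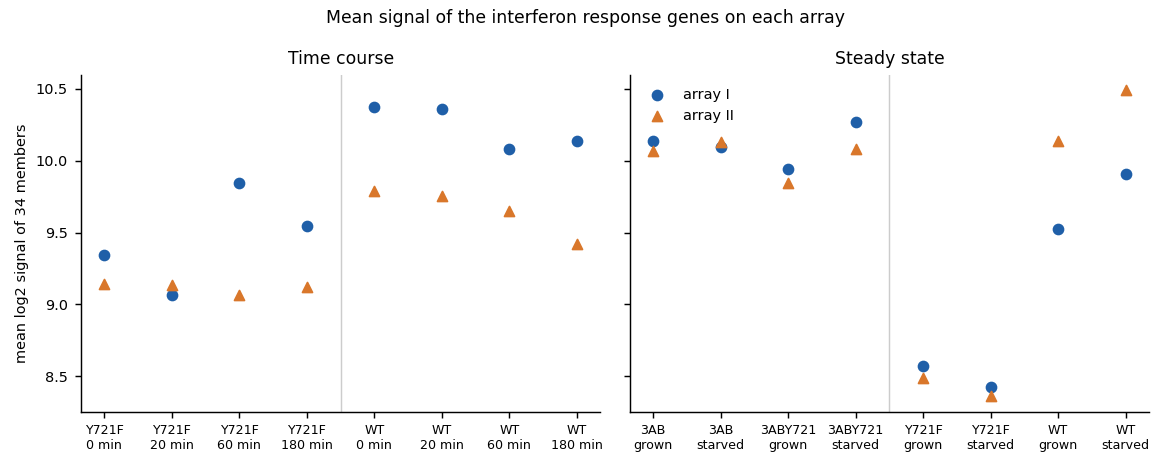
Mean log2 signal of the 34 measured members on each of the 32 arrays, by group, with circles for array I and triangles for array II. The 4 steady-state Y721F arrays lie between 8.36 and 8.57, below every other array, and the paired symbols of WT stand apart.

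The mean signal over the members was 8.57 and 8.49 on the arrays of grown Y721F cells and 8.43 and 8.36 on those of starved Y721F cells. In the same experiment 3AB cells had 10.14 and 10.07 (grown) and 10.10 and 10.13 (starved), 3ABY721 cells 9.94 and 9.84 (grown) and 10.27 and 10.08 (starved), and WT cells 9.53 and 10.14 (grown) and 9.91 and 10.49 (starved). The Y721F line was thus the low one of the 4 lines, and 3AB, the other line without Tyr-721, lay with the Tyr-721-expressing lines. In the time course the distance was smaller, with Y721F arrays between 9.06 and 9.84 and WT arrays between 9.42 and 10.37.

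**Figure D2:**
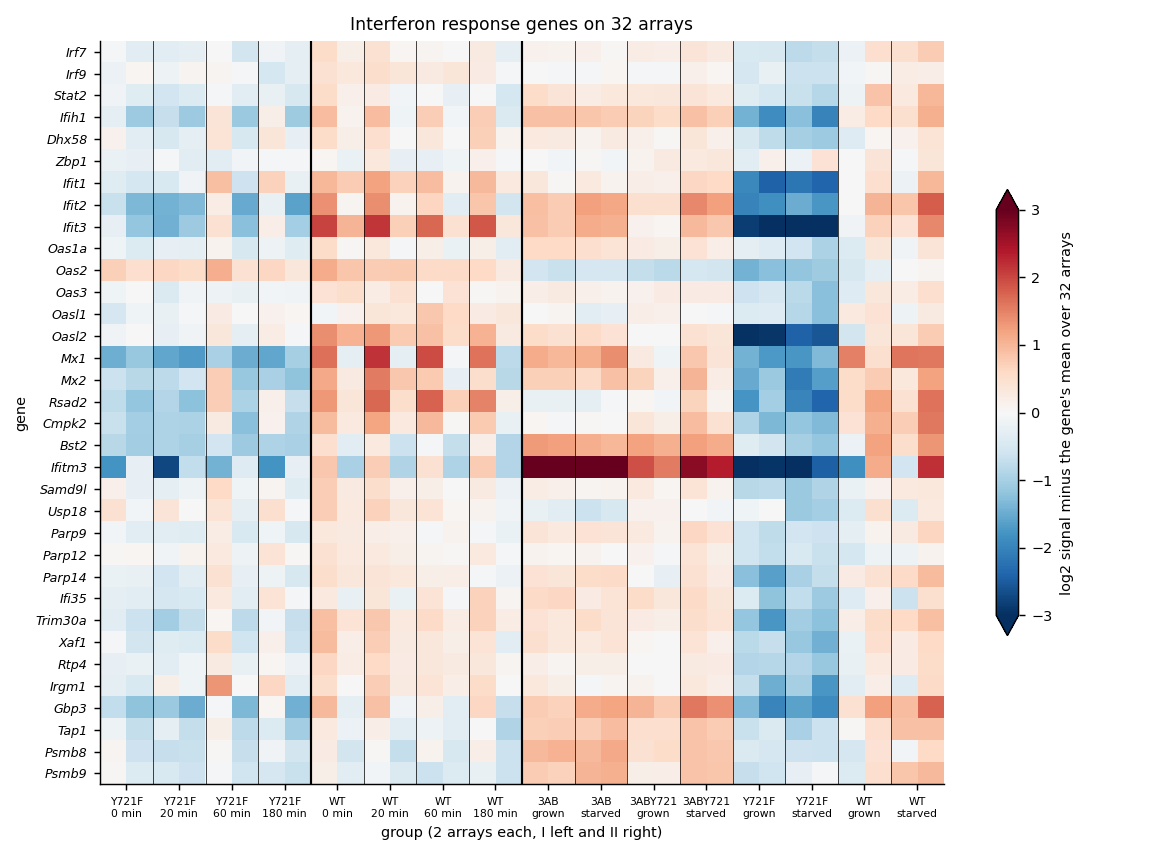
Signal of each member (rows) on each array (columns, I left and II right within a group), as the log2 signal minus that gene's mean over the 32 arrays; colours stop at 3 and -3. The 4 steady-state Y721F columns are blue for nearly all members, with Ifit3 and Ifitm3 among the deepest, and Zbp1 is near white across the map.

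In starved cells, 31 of the 34 members were lower in Y721F than in WT and 0 were higher, while 7.66% of all genes were called lower and 3.47% higher. The median difference of the members was -1.43, against -0.01 over all genes. The largest falls were those of Ifit3 (-4.31, SE 0.30, limma adjusted p = 5.67e-07), Ifitm3 (-3.59), Rsad2 (-3.22), Mx1 (-3.13), Gbp3 (-3.10), Oasl2 (-3.06), Ifit2 (-2.94) and Ifit1 (-2.69). In linear terms Ifit3 was 19.8-fold lower and Oasl2 8.31-fold lower. Parp12 (-0.54), Ifi35 (-0.83) and Zbp1 (-0.04) were not called. In RNA from whole cultures, fewer expressing cells and less RNA per cell cannot be told apart. On the quantile-normalized scale 28 members were called lower, and the split of all called genes moved from 692 higher and 1527 lower to 773 higher and 886 lower. Without WT array II the count was 26, and without WT array I it was 33.

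In cells grown in CSF-1, 22 of 34 members were lower in Y721F than in WT and 0 were higher, where 4.94% of all genes were called lower and 2.94% higher. The median difference was -0.91, against 0.05 over all genes. Ifit3 (-3.44, SE 0.30, limma adjusted p = 5.27e-06), Ifitm3 (-2.89), Oasl2 (-2.85), Mx1 (-2.57), Gbp3 (-2.49), Ifit2 (-2.44), Ifit1 (-2.43) and Rsad2 (-2.26) again had the largest falls. The 22 members called in grown cells were all among the 31 called in starved cells, 100% of the first list and 71.0% of the second. Bst2, Dhx58, Irf9, Irgm1, Oas1a, Oas3, Psmb8, Stat2 and Usp18 were called in starved cells and not in grown cells, and the difference of the growth effects between the lines, given further on, was not called for any of them. The count was 17 without WT array II and 27 without WT array I.

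**Figure D3:**
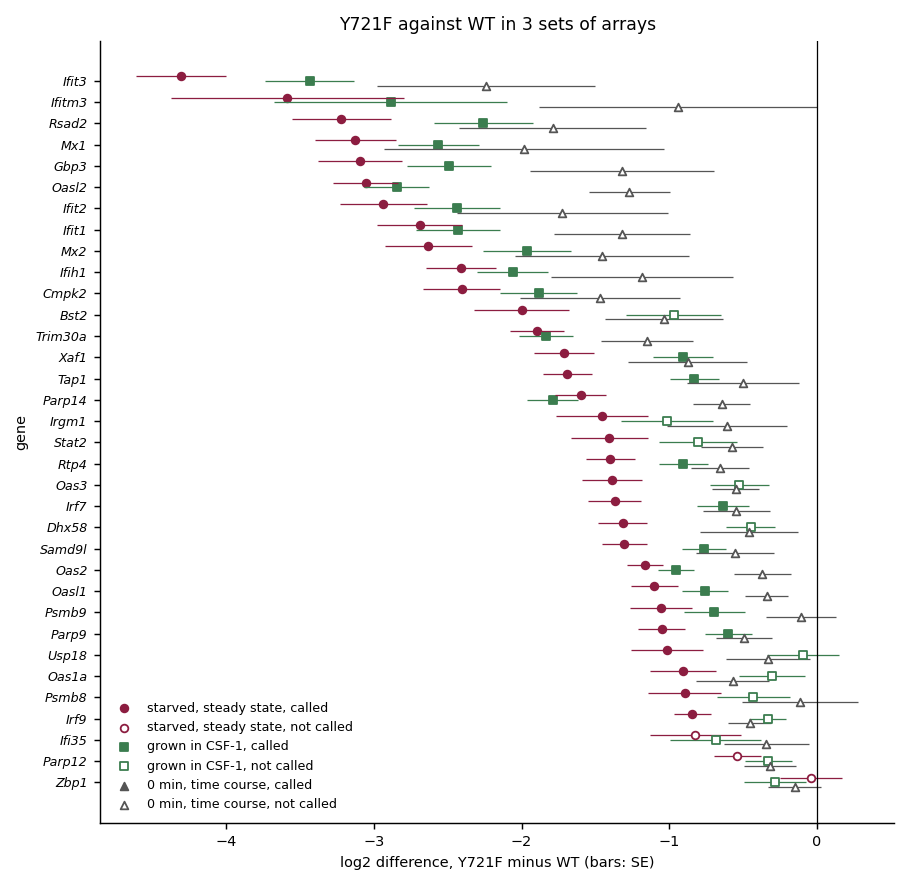
Log2 difference of Y721F minus WT for each of the 34 members in 3 separate sets of arrays: starved cells of the steady-state experiment (circles), cells grown in CSF-1 (squares) and 0 min of the time course (triangles). Bars are standard errors and filled symbols are called; every point lies below 0, and those at 0 min are open.

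Interferon-induced proteins with tetratricopeptide repeats (IFIT) bind viral RNA and block its translation. Ifit3 had log2 signals of 6.57 and 5.99 in grown and 5.80 and 6.31 in starved Y721F cells, against 9.31 and 10.12 in grown and 9.86 and 10.86 in starved WT cells. The highest Y721F array was far below the lowest WT array. Ifit1 read 8.09 and 7.87 in starved Y721F cells and 10.08 and 11.26 in starved WT cells, and Ifit2 8.39 and 8.14 against 10.71 and 11.69. All 3 IFIT genes were called lower in both conditions.

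The OAS proteins make the second messenger 2-5A, which activates the RNA-degrading RNase L, and Oasl1 and Oasl2 are their relatives. All 5 were lower in starved Y721F cells, by -0.91 (Oas1a) to -3.06 (Oasl2), and in grown cells the calls were Oasl2, Oas2 (-0.96) and Oasl1 (-0.76). Oasl2 stood at 8.33 and 8.21 in starved Y721F cells and at 11.13 and 11.52 in starved WT cells, far apart on both arrays. Oas2 had 9.14 and 9.26 in starved Y721F cells against 10.34 and 10.39 in starved WT cells, with replicate arrays of each group close together. Oas2, Tap1 and Psmb9 were called in 5 of the 24 planned comparisons, 19 members in 4, 7 members in 3, and 4 members in 2.

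Among the other antiviral effectors, all 7 measured members were lower in starved Y721F cells and 6 of 7 in grown cells, where Bst2 (-0.97, limma adjusted p = 0.0712) was not called. Mx1, a GTPase that in mouse acts in the nucleus on influenza-like viruses, had 4.59 and 5.02 in starved Y721F cells and 7.95 and 7.91 in starved WT cells. Those Y721F values were near the bottom of the arrays: Mx1 fell below the 20th percentile of all genes on 6 of 32 arrays, Ifitm3 on 3 and Mx2 on 1, and a difference of such a gene may be understated. Rsad2 (viperin, a radical SAM enzyme that makes a chain-terminating nucleotide) had 7.26 and 6.84 in starved Y721F cells and 9.69 and 10.85 in starved WT cells. Its neighbour Cmpk2, a mitochondrial nucleotide kinase, had 7.90 and 7.74 against 9.80 and 10.65. The arrays of the 2 lines did not overlap for any of these genes. Ifitm3 differed most between replicates, with 4.75 and 5.41 in starved Y721F cells and 7.28 and 10.05 in starved WT cells. Its call was lost in each condition when 1 array was left out, so the size of its change rests on few arrays.

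The 3 transcription factors of the pathway had smaller differences. Irf7, which drives interferon genes and its own induction, was lower in starved Y721F cells by -1.37 and in grown ones by -0.64, and its values in grown cells were 11.05 and 11.04 in Y721F against 11.34 and 12.02 in WT, apart but with a wide gap between the WT arrays. Stat2 and Irf9, subunits of ISGF3, were lower in starved Y721F cells by -1.41 and -0.85 and were not called in grown cells (-0.81 and -0.34). The sensor Ifih1 (MDA5), which detects long double-stranded RNA, was lower by -2.41 in starved and -2.06 in grown Y721F cells. Dhx58 (LGP2), its regulator, was lower by -1.32 in starved cells and was not called in grown cells (-0.45). Zbp1, a sensor of Z-form nucleic acid, gave 5.50 and 6.09 in starved Y721F cells and 5.63 and 6.04 in starved WT cells, which overlap, and it was called in 0 of the 24 comparisons.

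The remaining roles followed the same direction. Usp18, the protease that removes ISG15 and restrains the receptor, was lower in starved Y721F cells (-1.02, limma adjusted p = 0.0115) and differed by -0.10 in grown cells, without a call. Parp14 (-1.60 starved, -1.79 grown) and Parp9 (-1.05 and -0.60) of the ADP-ribosyltransferase family were lower in both conditions. Gbp3, a guanylate-binding protein that coats intracellular pathogens, had 7.03 and 6.76 in starved Y721F cells against 9.56 and 10.42 in starved WT cells, with no overlap. Irgm1, a GTPase that regulates its relatives on pathogen vacuoles, was lower in starved Y721F cells (-1.46), and its difference in grown cells (-1.02, limma adjusted p = 0.0515) was not called. Trim30a (-1.90 and -1.84), Xaf1 (-1.72 and -0.91) and Rtp4 (-1.40 and -0.91) were called in both.

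Tap1 carries peptides into the endoplasmic reticulum for MHC class I, and Psmb8 and Psmb9 are immunoproteasome subunits. Tap1 had 8.89 and 9.21 in starved Y721F cells and 10.74 and 10.74 in starved WT cells, and the groups were well apart. In grown cells it had 9.18 and 9.42 in Y721F and 9.89 and 10.37 in WT, closer but without overlap. Psmb9 was lower by -1.06 in starved and -0.70 in grown cells, and Psmb8 by -0.90 in starved cells, while its difference in grown cells (-0.43) was not called.

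The 4 promoters below belong to members from 3 of these roles and are shown because the genes moved together: Ifit3, Ifitm3 and Rsad2 had the largest falls in starved Y721F cells, and Tap1 was among the members called most often. They were picked after the values were seen. Sequences are RefSeq's for GRCm38.p6, each 300 bases with 250 before and 50 from the transcript start, read 5′ to 3′ on the gene's strand, and capitals mark each match to the ISRE core, GAAANNGAAA on either strand. Ifit3 is at chr19:34583279-34583578 (plus strand), Ifitm3 at chr7:141010695-141010994 (minus), Rsad2 at chr12:26456403-26456702 (minus) and Tap1 at chr17:34187306-34187605 (plus).
Ifit3: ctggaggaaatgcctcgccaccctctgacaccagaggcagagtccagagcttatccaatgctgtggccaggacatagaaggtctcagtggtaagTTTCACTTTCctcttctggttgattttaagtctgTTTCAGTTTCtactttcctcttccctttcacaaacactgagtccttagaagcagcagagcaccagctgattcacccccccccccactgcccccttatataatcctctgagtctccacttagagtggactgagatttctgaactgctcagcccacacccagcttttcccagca
Ifitm3: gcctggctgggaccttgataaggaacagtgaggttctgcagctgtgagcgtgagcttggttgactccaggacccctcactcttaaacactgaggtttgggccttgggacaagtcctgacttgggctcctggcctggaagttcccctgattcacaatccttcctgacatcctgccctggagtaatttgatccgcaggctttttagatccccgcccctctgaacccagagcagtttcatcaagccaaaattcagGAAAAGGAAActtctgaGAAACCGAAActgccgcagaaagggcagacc
Rsad2: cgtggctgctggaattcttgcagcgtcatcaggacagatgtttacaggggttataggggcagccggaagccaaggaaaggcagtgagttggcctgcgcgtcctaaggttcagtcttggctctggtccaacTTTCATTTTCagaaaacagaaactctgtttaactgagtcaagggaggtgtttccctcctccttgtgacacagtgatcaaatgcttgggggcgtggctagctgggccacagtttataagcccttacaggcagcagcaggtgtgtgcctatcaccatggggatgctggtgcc
Tap1: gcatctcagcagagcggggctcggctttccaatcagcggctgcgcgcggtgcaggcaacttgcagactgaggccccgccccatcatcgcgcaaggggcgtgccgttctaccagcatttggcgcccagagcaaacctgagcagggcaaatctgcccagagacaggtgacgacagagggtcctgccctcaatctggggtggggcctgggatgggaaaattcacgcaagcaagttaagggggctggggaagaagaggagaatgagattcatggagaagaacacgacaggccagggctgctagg
Counting the transcript start as 1 and the base before it as -1, the Ifit3 matches begin at -156 and -122, that of Rsad2 at -120, and those of Ifitm3 at 3 and 20. Tap1 has 0 matches in this window, which is in large part also that of the divergent gene Psmb9: 275 bases are common to both. A promoter window was given for 30 of the 39 members. The ISRE core was in at least 1 window of 15 of these 30 genes, against 3.99% of 27025 genes. Among the 25 measured members with a window it was in 12 (48.0%). The list was chosen as interferon response genes, so a high share is no separate result. In all, 8 members held the core more than once, in part as overlapping matches. The core of the gamma-activated site, TTCNNNGAA, was in 7 of 30 members (23.3%) against 9.55% of all genes. In 2 member windows a match to one motif overlapped a match to the other. Members whose window held no match, such as Tap1, Oasl2 and Cmpk2, were also lower in Y721F. A match describes letters and not binding.

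The 3AB line also lacks Tyr-721, and its members stood far above those of Y721F. In grown cells 30 of 34 members were higher in 3AB than in Y721F and 0 were lower, where 4.65% of all genes were called higher. In starved cells 32 were higher and 0 lower, where 5.08% of all genes were called higher. The median difference was 1.23 in grown and 1.33 in starved cells. Ifitm3 (6.42 grown, 6.04 starved), Ifit3 (3.96 and 4.46) and Oasl2 (3.45 and 3.00) had the largest rises. Ifitm3 had 11.10 and 10.94 in grown 3AB cells against 4.29 and 4.92 in grown Y721F cells, and Ifit3 10.29 and 10.19 against 6.57 and 5.99. Every one of these 3AB values was above every Y721F value of its gene. Usp18 (-0.22 grown, 0.51 starved) and Zbp1 (0.04 and -0.15) were called in neither condition. These comparisons use the same Y721F arrays as those against WT, so the 2 sets of calls are not independent. On the quantile-normalized scale 27 members were higher in grown and 28 in starved cells, and in starved cells the split of all called genes moved from 1012 higher and 506 lower to 727 higher and 640 lower.

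Between 3AB and 3ABY721, which differ in Tyr-721 on the 3AB receptor, limma called 0 of 34 members in either condition, where 1.18% (grown) and 0.617% (starved) of all genes were called. At an unadjusted p under 0.05 there were 5 members in grown cells (11.3% of all genes) and 2 in starved cells (8.43%). The median difference was 0.15 in grown and -0.09 in starved cells. In grown cells both 3AB arrays lay above both 3ABY721 arrays in 22 of 34 members (26.2% of all genes) and below them in 6 (26.0%). In starved cells the 3AB arrays lay above in 7 members (20.5%) and below in 13 (19.2%). Ifitm3 differed most, by 1.42 (SE 0.79) in grown cells, where 3AB had 11.10 and 10.94 and 3ABY721 had 9.79 and 9.41. Those arrays did not overlap, but the standard error of Ifitm3 carries the wide WT replicates of the same fit. Mx1 differed by 0.99 (SE 0.27, limma adjusted p = 0.128) in grown cells. A missed threshold with 2 arrays a group does not show that the lines are alike.

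Between 3ABY721 and WT, the lines that keep Tyr-721, 0 of 34 members were called by limma in grown cells (7 at an unadjusted p under 0.05, as were 11.9% of all genes, of which 0.256% were called). In starved cells Oas2 was lower in 3ABY721 (-0.59, SE 0.12, limma adjusted p = 0.031), and 1.81% of all genes were called. Oas2 had 9.80 and 9.76 in starved 3ABY721 cells and 10.34 and 10.39 in starved WT cells. It was not called on the quantile-normalized scale (-0.47) or without any 1 of the 4 arrays. In that comparison the quantile scale also moved the split of all called genes, from 66 higher and 295 lower to 68 higher and 98 lower. Without WT array II of grown cells, Bst2, Ifitm3, Psmb8 and Psmb9 were higher and Mx1 lower in 3ABY721. The median member differed by 0.05 in grown and -0.05 in starved cells.

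At 0 min of the time course, which is also a starved state, limma called 0 of 34 members between Y721F and WT, and 0.727% of all genes were called. All 34 differences were negative, with a median of -0.59 against -0.02 over all genes, and 18 members had an unadjusted p under 0.05, as had 9.63% of all genes. Both Y721F arrays were below both WT arrays in 28 of 34 members, against 21.9% of all genes. Ifit3 had 9.17 and 8.26 at 0 min in Y721F against 11.46 and 10.45 in WT, and Oasl2 10.67 and 10.76 against 12.16 and 11.81. Neither gene's arrays overlapped, while the adjusted p was 0.292 for Ifit3 (-2.24, SE 0.74) and 0.0653 for Oasl2 (-1.27, SE 0.27).

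Taking the 0 min, starved and grown arrays as 3 comparisons with no array in common, 27 of 34 members had both Y721F arrays below both WT arrays in each, against 4.92% of all genes (980). The exceptions were Zbp1, Oas1a, Ifitm3, Usp18, Tap1, Psmb8 and Psmb9. The size of the gap differed between the array sets. In a fit of all 32 arrays added after the data were seen, the Y721F minus WT difference was further below 0 in starved cells than at 0 min for 33 of 34 members, with a median of -0.84. Oasl2 was the 1 member called in that contrast (-1.79, SE 0.37, limma adjusted p = 0.0199), where 1.64% of all genes were called. Leaving out 1 array at a time gave 0 to 3 members. The Oasl2 values stand apart mostly in the Y721F line: 8.33 and 8.21 in the steady-state starved cells and 10.67 and 10.76 at 0 min, while WT had 11.13 and 11.52 in the steady-state starved cells and 12.16 and 11.81 at 0 min. Whether the 2 sets were hybridized or normalized together is not given in the sources used here, so biology and array set cannot be told apart.

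No member was called after CSF-1 was given to starved cells, in the fit without a replicate block. limma called 0 of 34 at 20, 60 and 180 min in Y721F, where 0.0802%, 0.176% and 0.261% of all genes were called, and 0 of 34 in WT, where 0.16%, 0.632% and 2.16% were called. Members with an unadjusted p under 0.05 numbered 0, 2 and 2 in Y721F, where 6.81%, 5.34% and 13.3% of all genes had one, and 0, 2 and 5 in WT, where 2.19%, 11.8% and 14.6% had one. The members thus passed at about the rate of all genes or below it. In this fit the gap between arrays I and II counts as spread. Its median absolute size over the members was 0.34 to 0.57 in WT and 0.205 to 0.685 in Y721F. Over all genes it was 0.14 to 0.19 in both lines. A low pass rate of the members therefore does not show that CSF-1 left them unchanged. The medians over the members were -0.13, 0.13 and 0.04 in Y721F at 20, 60 and 180 min, and -0.09, -0.28 and -0.36 in WT. With 1 array left out at a time, the Y721F medians lay between -0.25 and -0.01 at 20 min, -0.21 and 0.51 at 60 min and -0.17 and 0.23 at 180 min. The WT medians then lay between -0.32 and 0.19, -0.50 and -0.005, and -0.63 and -0.005. Such a run sets a lone array against arrays I and II, so these ranges carry the gap between I and II. By number, the mean over the members at 0, 20, 60 and 180 min was 10.37, 10.36, 10.08 and 10.14 on the WT I arrays. On the WT II arrays it was 9.79, 9.75, 9.65 and 9.42. Both series were thus lower at 60 and 180 min than at 0 min.

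Within each line the array numbers paired the time-course samples, and with the number as a replicate block 2 calls appeared in WT and 0 in Y721F. These were 1 of 34 members (2.94%) at 60 min, where 3.74% of all genes were called with the block, and 1 of 34 at 180 min, where 7.81% were, so the members' share was below that of all genes at both times. Oasl1 rose at 60 min in WT (0.68, SE 0.14, blocked adjusted p = 0.0216, against 0.0685 without the block). Its values over 0, 20, 60 and 180 min were 11.19, 11.63, 12.07 and 11.51 on the WT I arrays and 11.39, 11.58, 11.86 and 11.60 on the WT II arrays. Both series peaked at 60 min. In Y721F the same gene had 10.76, 11.05, 11.52 and 11.39 on the I arrays and 11.14, 11.24, 11.29 and 11.33 on the II arrays, all below their WT counterparts of the same number and time. Stat2 fell at 180 min in WT with the block (-0.60, SE 0.12, blocked adjusted p = 0.00827, against 0.172 without it). It had 9.46 and 8.92 at 180 min and 9.99 and 9.59 at 0 min in WT.

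**Figure D4:**
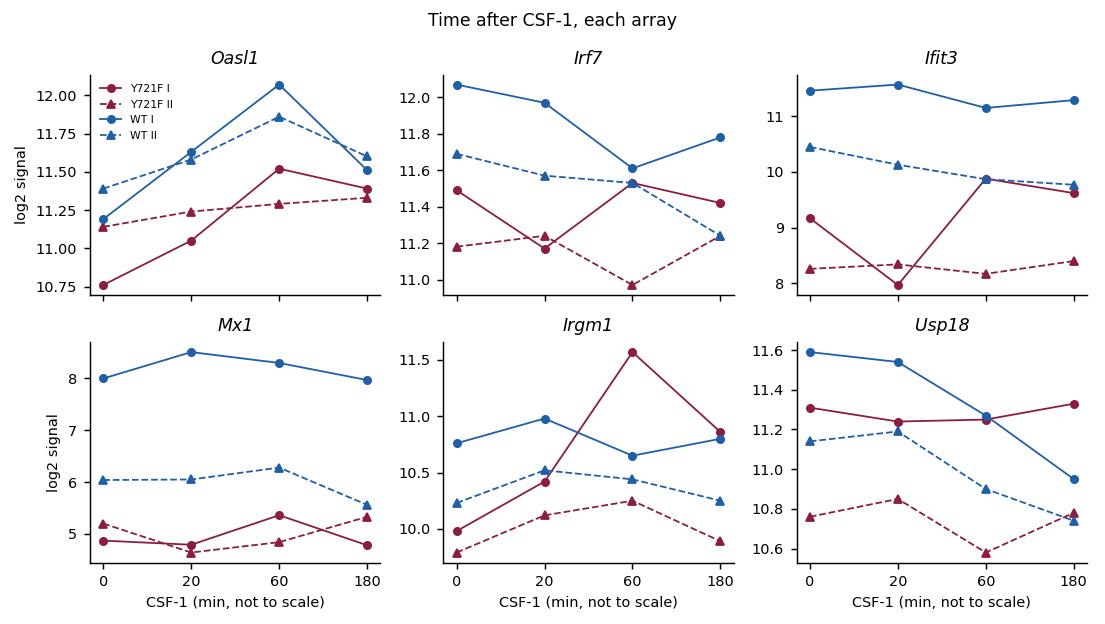
Log2 signal of 6 members over the time after CSF-1 (0, 20, 60 and 180 min, evenly spaced), for Y721F and WT, with a line for each array series (solid I, dashed II). Oasl1 peaks at 60 min in both WT series, Mx1 stays near 5 in Y721F and is split between 8 and 6 in WT, and the Y721F I array at 60 min stands above its II array for Ifit3 and Irgm1.

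At 60 min the 2 Y721F arrays stood apart, with array I above array II in 32 of 34 members and a median gap of 0.67. Ifit3 had 9.88 on array I and 8.17 on array II, and Irgm1 had 11.57 and 10.25. Without array I the median response of Y721F at 60 min was -0.21, and without array II it was 0.51. These values set a lone 60 min array against both 0 min arrays, so they carry the gap at 0 min too. By number, the mean over the members went from 9.34 at 0 min to 9.84 at 60 min on the I arrays. On the II arrays it went from 9.14 to 9.07, so the rise was seen on the I array only. The difference of the responses, Y721F minus WT, had a median of -0.08 at 20 min, 0.42 at 60 min and 0.40 at 180 min, and limma called 0 members and 0.0% of all genes at each time, with 0 members at an unadjusted p under 0.05 (4.06%, 3.21% and 1.39% of all genes). With 1 array left out at a time, those medians lay between -0.23 and 0.19, 0.05 and 0.75, and 0.08 and 0.64. Both Y721F arrays were below both WT arrays in 29 members at 20 min (16.7% of all genes), 6 at 60 min (17.5%) and 11 at 180 min (22.1%).

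Few members were called between grown and starved cells of any line, in a fit without the array number; array I of WT was below array II in most members in both conditions. In 3AB 0 of 34 were called by limma (0 at an unadjusted p under 0.05, 0.687% of all genes called), and in 3ABY721 also 0 (4 unadjusted, as were 12.2% of all genes, of which 1.41% were called). In Y721F, Usp18 (1.00, SE 0.24, limma adjusted p = 0.0255) and Oasl1 (0.65, SE 0.16, adjusted p = 0.0253) were higher in grown than in starved cells, where 3.48% of all genes were called higher. Usp18 had 10.72 and 10.85 in grown and 9.74 and 9.83 in starved Y721F cells. Neither was called on the quantile-normalized scale, where Parp14 was lower (-0.77), where the median of the members was 0.01 in place of 0.15, and where the split of all called genes moved from 693 higher and 292 lower to 472 and 450. The calls of Usp18 and Oasl1 were also each lost without some single arrays. At an unadjusted p under 0.05 there were 9 members in Y721F (21.5% of all genes) and 12 in WT (20.0%). In WT, Psmb9 (-0.85, SE 0.21, limma adjusted p = 0.0272) and Tap1 (-0.61, SE 0.16, adjusted p = 0.0418) were lower in grown cells, where 3.01% of all genes were called lower. Tap1 had 9.89 and 10.37 in grown and 10.74 and 10.74 in starved WT cells. Both calls were lost without some single arrays. With 1 array left out at a time, the median of the members in WT lay between -0.595 and -0.108. Such a run sets a lone array against arrays I and II, so this range carries the gap between them. The mean over the members was 9.53 (grown) and 9.91 (starved) on the WT I arrays, and 10.14 and 10.49 on the WT II arrays. It was thus lower in grown cells on both numbers, which the labels do not pair.

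**Figure D5:**
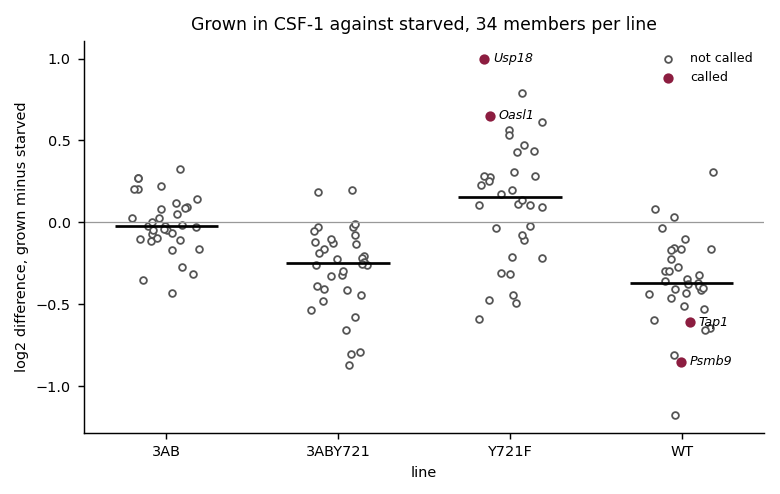
Log2 difference of grown minus starved for the 34 members in each of the 4 lines, with a bar at the median and called genes filled and named. The medians are -0.02 in 3AB, -0.25 in 3ABY721, 0.15 in Y721F and -0.37 in WT.

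In 3ABY721, 32 of 34 differences between grown and starved cells were negative and in WT 31 of 34. In Y721F 22 were positive, and in 3AB 14 were positive and 19 negative. Both grown arrays were below both starved arrays in 24 members in 3ABY721 (22.1% of all genes) and 10 in WT (24.7%). They were above in 2 members in 3ABY721 (24.5%) and 1 in WT (19.5%). In Y721F they were above in 14 members (25.1%) and below in 5 (22.3%). In 3AB they were above in 11 (26.2%) and below in 8 (23.3%). The difference of the growth effects, tested as its own contrast, was called for 0 of 34 members between Y721F and WT (9 at an unadjusted p under 0.05, as were 12.7% of all genes, of which 0.0903% were called), with 32 positive differences and a median of 0.52. Without WT grown array II it was called for 8. Between 3AB and 3ABY721 it was called for 0 of 34 (0.00502% of all genes), with 0 at an unadjusted p under 0.05 (2.21%). All 34 differences were nonetheless positive, with a median of 0.25.

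Genes around the members were read from lists of the pathway. Ifnb1, the gene of interferon beta, lay between 4.63 and 5.57 on all arrays, while the 20th percentile of all genes was between 4.73 and 5.03, and it was called in 0 of the 24 comparisons. Ifnar1 had 9.68 and 9.64 in grown Y721F cells against 10.60 and 10.75 in grown WT cells, a difference of -1.02 (limma adjusted p = 0.000157). In starved cells it was lower in Y721F by -0.59, and Ifnar2 by -0.68. Against 3AB, Y721F was the lower line for both receptor genes, with 3AB minus Y721F differences of 1.25 (grown) and 0.68 (starved) for Ifnar1 and 0.77 and 0.70 for Ifnar2. Irf1, a factor induced early by interferon gamma and other signals, was not called between Y721F and WT (-0.32 grown, -0.31 starved) and was higher in 3AB than in Y721F (0.79 grown, 0.78 starved).

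Of 23 measured genes of signalling and sensing upstream, 8 were lower in Y721F than in WT in grown and 8 in starved cells, and 0 were higher. Tlr7, the endosomal sensor of single-stranded RNA, differed most (-3.66 grown, -3.09 starved), followed by Irf8 (-2.10 and -1.66), Tlr3 (-1.69 and -1.31) and the RNA sensor Ddx58 (-0.79 and -1.10). Of 36 other interferon-induced genes measured, 18 were lower in grown cells, and in starved cells 26 were lower and 1, Nlrc5, was higher. Trim30d (-2.85 grown, -4.08 starved), Cxcl10 (-3.08 and -2.94), Gbp4 (-2.12 and -2.71) and Phf11d (-2.12 and -2.70) were among the lower ones. At 0 min 0 of the 36 were called, and 32 of the 36 differences were negative. Of 11 measured genes of class I presentation, 3 were lower in grown and 7 in starved Y721F cells, with H2-Q4 (-1.30 and -2.11) the furthest.

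Macrophage markers differed in the same comparisons. Of 9 measured, 4 were lower in Y721F than in WT in each condition: Fcgr1 (-5.16 grown, -4.38 starved), Mertk (-2.78 and -1.75) and Itgam (-0.91 and -0.85) in both, Lyz2 (-1.54) in grown and Cd14 (-1.02) in starved cells. The mean over the 9 markers was 10.21 to 10.23 in grown Y721F cells and 11.53 to 11.57 in grown WT cells, and 10.89 to 11.07 in starved Y721F cells and 11.88 to 12.14 in starved WT cells. Fcgr1, a high-affinity IgG receptor, is itself known to be interferon-inducible. Of 5 measured plasmacytoid dendritic cell markers, 1, Tcf4, was lower in Y721F (-0.88 grown, -1.03 starved), while 3 of the 5 differences were positive in grown and 4 in starved cells. Their mean was 5.72 to 5.98 in grown Y721F cells and 5.86 to 5.96 in grown WT cells, and 5.86 to 5.98 in starved Y721F cells and 5.85 to 6.28 in starved WT cells. Of 6 fibroblast markers, Pdgfra was higher (2.05 and 1.50). The mean over the 6 fibroblast markers was 6.38 to 6.68 in grown Y721F cells and 6.11 to 6.15 in grown WT cells, and 6.69 to 6.81 in starved Y721F cells and 6.09 to 6.32 in starved WT cells. No marker of conventional dendritic cells, granulocytes or lymphocytes was called between Y721F and WT in grown or starved cells. Csf1r had 12.83 and 12.72 in grown Y721F cells against 13.41 and 13.28 in grown WT cells (-0.57) and was not called, since its fold was under 1.5. The part of these differences in the interferon genes' levels was not tested.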

How the data were processed

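Total RNA of 32 samples was hybridized to 32 arrays of 1 colour (biotin). The authors deposited 1 table of log2 signals for 35556 probe sets; that the scale is log2 was read from the values (array medians 5.97 to 6.22), while the sources used here do not say how background, summarization and normalization were done. Of 23410 annotated probe sets, 21789 name 1 gene and were used, and the one with the highest mean stood for each of 19938 genes.

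The 16 arrays of each experiment were fitted with limma 3.58.1 (R 4.3.3), with a mean per group and 24 planned contrasts; SEs and p-values are limma's, adjusted by Benjamini-Hochberg over 19938 genes. The fit was also run on simulated data with independent noise for each gene. Those data lack the members' shared shift between replicate arrays, so they do not bear on the counts of members called. Genes named are all members, plus list genes with the largest called changes. The members and lists were chosen with earlier results of these data known. Over all genes, array numbers paired samples within a line in the time course (correlation of deviations 0.487 to 0.734 in WT, 0.353 to 0.648 in Y721F). Between lines of the time course they did not (-0.0633 to 0.290). In the steady state the correlations were low, 0.0423 to 0.280 within a line (0.255 in WT) and -0.328 to 0.283 between lines. The members of WT still followed the number there, with array I below array II in 33 (grown) and 31 (starved) of 34. Alternatives were the replicate block, quantile normalization, a signal filter, probe set means, a trended prior, the series text's cutoff and single arrays left out. The samples are called biological replicates, but separate cultures are not described, so p-values measure the spread between these samples.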

Additional observations from a re-analysis of the deposited data

Results flagged for a closer look

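The gap between Y721F and WT differed between the array sets for Oasl2 in a test of the difference of 2 effects. The Y721F minus WT difference in starved cells of the steady-state experiment, minus that at 0 min of the time course, was -1.79 (SE 0.37, limma adjusted p = 0.0199). In that contrast 1.64% of all genes were called, 33 of 34 members differed in the same direction with a median of -0.84, and with the replicate block 21 members were called, so Oasl2 is not set apart from the other members. The call was lost without some single arrays, and no explanation was tested.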

How the results depend on the processing

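The members were called in 121 gene-by-comparison results, none of which changed direction under any alternative run. Quantile normalization lost 16 of them, a moderated variance with trend and robust prior 2, the replicate block 1, and leaving out single arrays 33 at least once; a filter at the 20th percentile of signal lost 0. The mean of a gene's probe sets could not differ, since each member has 1, and the series text's cutoff keeps every adjusted call by its construction.

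With quantile normalization, the called members were 1 in Y721F grown against starved (Parp14, lower) and 0 in 3ABY721 against WT starved. With the replicate block, they were 1 in WT at 60 min, 1 in WT at 180 min, 9 in Y721F against WT at 0 min (2.01% of all genes), 5 in WT grown against starved (Ifit2, Ifitm3, Oasl2, Psmb9 and Tap1; 6.69%), 4 in Y721F grown against starved (5.69%), 2 in 3ABY721 grown against starved (Ifit2 and Ifitm3; 2.15%) and 21 in the added contrast of starved against 0 min (8.19%). The labels do not say that the numbers pair samples and each steady-state line has only 1 pair, so the block values there and between lines are a hint only, and the block changed no other count by over 1.5 times. Under the series text's cutoff on the unadjusted p, the counts were 1 in WT at 60 min, 1 in WT at 180 min, 1 in Y721F at 60 min, 11 in Y721F against WT at 0 min, 5 in WT grown, 4 in Y721F grown, 3 in 3ABY721 grown, 2 in 3AB against 3ABY721 in each condition, 3 in 3ABY721 against WT in each condition, 7 for the difference of growth effects of Y721F and WT, and 15 in the added contrast. All genes passed that cutoff at 4.14%, 7.1%, 1.54%, 3.53%, 8.29%, 7.03%, 4.13%, 3.08% (grown), 2.33% (starved), 2.81% (grown), 3.95% (starved), 7.81% and 10.9% in the same order, so the 1 member (2.94%) in WT at 60 or 180 min is below that share.

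Leaving out 1 array at a time, the counts ranged from 17 to 27 for Y721F against WT grown and 26 to 33 starved, 21 to 26 for 3AB against Y721F grown and 25 to 30 starved, 0 to 5 for 3ABY721 against WT grown and 0 to 0 starved, 0 to 13 for WT grown, 0 to 1 for Y721F grown, 0 to 1 for WT at 60 min, 0 to 8 for the difference of growth effects of Y721F and WT, and 0 to 3 in the added contrast. The lone array left in a group was then assumed to vary like the other groups. Where a WT array was left out, the range also carries the gap between WT arrays I and II. The causes were not tested. The arrays' signal floor limits Mx1, Mx2 and Ifitm3 in Y721F, and the files used carry no detection calls.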
